A study of Homo sapiens with 15 samples.

Results

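Krüppel-like factors (KLFs) are zinc finger transcription factors, and 10 of them, KLF2, KLF4, KLF5, KLF6, KLF7, KLF9, KLF10, KLF11, KLF13 and KLF16, were followed here across the doses of ZJ-101. They were taken by gene symbol, as family members with short-lived mRNA, from 59608 genes in the expression table, and all 10 were among the 13561 genes tested, which are those whose normalized counts average 10 or more over the libraries. KLF proteins share a carboxy-terminal zinc finger domain that binds GC-rich and CACCC sequences, and they differ in the amino-terminal part that recruits co-regulators. KLF2, KLF4, KLF5, KLF6 and KLF7 are mostly known as activators that bind acetyltransferases. KLF9, KLF10, KLF11, KLF13 and KLF16 carry a motif that binds the co-repressor SIN3A. In epithelial cells several of the genes respond within hours to serum, stress, steroid or TGF-beta signals.

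The cells were MDA-MB-231, an established human breast cancer line of the triple-negative, mesenchymal kind, grown on dishes in medium with serum. They received 0.1% DMSO as the control, or 0.5, 5, 50 or 500 nM ZJ-101, a synthetic analogue of the marine macrolide superstolide A, and RNA was taken after 6 h. There were 3 libraries per group and 15 in all. All libraries come from 1 cell line and 1 time point, so no other line or time was compared.

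The libraries held 12415519 to 15284762 reads on genes. VIM, CD44, EGFR and AXL, which mark mesenchymal breast cancer cells, were high in every library (VIM from 13430 normalized counts), and of the genes named as low in this line ESR1 did not exceed 4.30 and PGR 17.3. The other genes named as low were present: CDH1 at 107 to 206, EPCAM at 266 to 320.2 and ERBB2 at 1136 to 1328. Of 3 markers of other cells, PTPRC and ALB stayed at or below 3.53, whereas PECAM1 lay between 201 and 321. Bulk RNA cannot tell fewer cells that express a gene from less RNA of it per cell. Values are counts divided by a library size factor, so they are shares of a library and not amounts per cell.

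The 3′ untranslated regions (UTRs) were read because AU-rich sites there are known to shorten the life of an mRNA. ATTTA occurred in all 10, from 2 matches in KLF4 and KLF16 to 20 in KLF7, with 4 in KLF2 and 3 in KLF10. Among 11723 tested coding genes the median was 2, and 74.5% had at least 1. The counts go with UTR length, which was 7076 bases in KLF7 against a median of 1386. Per kb, KLF6 (1.69), KLF13 (0.893) and KLF16 (0.971) lay below the median of 1.79 and the other members above it, from 2.22 in KLF4 to 3.03 in KLF5. The longer form TATTTAT, which contains ATTTA, occurred in KLF2, KLF5, KLF6, KLF7, KLF11 and KLF16, once in each, and in 37.4% of the tested coding genes. Among the members with TATTTAT are KLF2, which fell at 500 nM, and KLF16, which passed no test. KLF6 and KLF7 were lower at the higher than at the lower doses, but the KLF7 call was lost without any of many single libraries. The sites below are those of KLF2, KLF6, KLF7 and KLF16. They are 30 bases each, from GENCODE release 44 transcripts in build GRCh38, 5′ to 3′ on the mRNA strand, with TATTTAT in capitals, at chr19:16327101-16327130 (plus strand), chr10:3778340-3778369 (minus), chr2:207075428-207075457 (minus) and chr19:1853691-1853720 (minus).
KLF2: actgtgactggTATTTATtggacccagaga
KLF6: tatgtttctctTATTTATgccttgaggact
KLF7: gccttctctggTATTTATaatatatcacag
KLF16: gaatcctggctTATTTATtttcctctgtcc
The site was matched in KLF2, which was called lower at 500 nM, and in KLF16, which passed no test. It was not matched in KLF10 or KLF13, which were also called lower at 500 nM, nor in KLF4 or KLF9. The KLF13 call was lost without DMSO replicate 3 or any 1 library of 500 nM. Decay of the mRNAs was not measured, and a link between the site and the changes was not tested.

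Promoter windows were available for 9 members from RefSeq (GRCh38.p14), as the 250 bases before a listed transcript start. The table has 4 starts for KLF7 and 2 each for KLF5 and KLF11. The one nearest the GENCODE gene start was used, so the matches below are those of 1 start per gene. The windows of KLF4, KLF7 and KLF11 lie inside the GENCODE gene, and that of KLF6 lies partly inside it. For KLF11 the window begins at chr2:10043579, past the gene start at 10042849. Matches in such windows can lie in transcribed sequence. The windows of KLF2 and KLF13, both called lower at 500 nM, are shown 5′ to 3′ in the gene's direction. They lie at chr19:16324576-16324825 and chr15:31326585-31326834, both on the plus strand. For KLF13 the call was lost without DMSO replicate 3 or any 1 library of 500 nM. Capitals mark GGGCGG and CACCC on either strand, which overlap near the end of the KLF13 window.
KLF2: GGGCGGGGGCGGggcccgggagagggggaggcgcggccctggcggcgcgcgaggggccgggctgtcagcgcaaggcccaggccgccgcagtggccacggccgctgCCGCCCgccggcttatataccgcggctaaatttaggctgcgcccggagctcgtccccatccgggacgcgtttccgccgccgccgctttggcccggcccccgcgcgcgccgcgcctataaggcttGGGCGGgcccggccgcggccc
KLF13: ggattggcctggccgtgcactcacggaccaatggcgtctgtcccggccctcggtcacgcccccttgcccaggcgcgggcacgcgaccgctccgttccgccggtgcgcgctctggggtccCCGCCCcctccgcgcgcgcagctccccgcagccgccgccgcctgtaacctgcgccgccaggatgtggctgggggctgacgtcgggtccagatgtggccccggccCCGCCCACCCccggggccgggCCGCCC
GGGCGG, the letters of the Sp/KLF GC box, matched 4 times in KLF2, 4 times in KLF4, 3 times in KLF13, 7 times in KLF16 and 2 times each in KLF6 and KLF11, and not in KLF5, KLF7 or KLF9. It occurred in 42.6% of all 35116 promoter windows. CACCC matched once each in KLF5, KLF7 and KLF13 (54.7% of all windows), and the CArG box matched only in KLF7 (1.16%). The cyclic AMP response letters TGACGTCA and the related TGACGCAA matched in none of the 9 windows (1.65% and 0.478% of all windows).

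KLF2 is best known as the flow-responsive factor of endothelium, and in these cells it fell with dose. Its normalized counts in the 3 libraries of each group were 621, 627 and 599 in DMSO, 661, 697 and 584 at 0.5 nM, 544, 608 and 619 at 5 nM, 459.9, 473 and 416 at 50 nM, and 429, 327 and 322 at 500 nM. All libraries of 50 and 500 nM lay below all those of DMSO, and those of 0.5 and 5 nM overlapped DMSO. At 500 nM the level was 359 ± 60.4 against 616 ± 15.03 in DMSO (mean ± SD, n = 3), a log2 fold change of -0.79 (SE 0.0953, limma, adjusted p = 7.47e-06). At 50 nM it was -0.45 (adjusted p = 0.0052). The step from 5 to 50 nM was -0.39 (adjusted p = 0.0198), a call that ended when 5 nM replicate 2, 5 nM replicate 3, 50 nM replicate 1 or 50 nM replicate 3 was left out (adjusted p up to 0.101). The step from 50 to 500 nM was -0.33 (adjusted p = 0.0849). It passed without 500 nM replicate 1, the highest of that group (-0.47, adjusted p = 0.00489), and without 0.5 nM replicate 2. Leaving out 0.5 nM replicate 2 raised the calls of this step over all tested genes too. They went from 65 higher and 244 lower to 228 and 402.

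KLF4, a differentiation factor of epithelia and one of the reprogramming factors, moved the other way. Its counts were 783, 809 and 793 in DMSO, 739.6, 805 and 807 at 0.5 nM, 839, 817 and 823 at 5 nM, 823, 871 and 852 at 50 nM, and 881, 886 and 969.7 at 500 nM. The libraries of 5, 50 and 500 nM all lay above those of DMSO. The rise at 500 nM was small, 0.20 on the log2 scale (SE 0.0521, adjusted p = 0.0125), which is 14.6%, and the call was lost without DMSO replicate 1 (adjusted p = 0.051) or without 500 nM replicate 3 (0.15, adjusted p = 0.0828). The slope per step of dose was 0.05 (adjusted p = 0.00508). The ratio of KLF4 to KLF2 normalized counts within a library went from 1.29 ± 0.032 in DMSO to 1.89 ± 0.137 at 50 nM and 2.59 ± 0.489 at 500 nM, where the 3 libraries gave 2.05, 2.71 and 3.01. In the KLF4 gene 9.75% of the exon bases lie in a gene on the opposite strand, and whether the counting used strand was not given in the sources used here.

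KLF6 is the most highly expressed of the 10, a widely expressed growth regulator. Its counts were 3057, 3066 and 3097 in DMSO, 3379, 3496 and 3373 at 0.5 nM, 3256, 3223 and 3413 at 5 nM, 3013, 3130.5 and 3104 at 50 nM, and 2754, 2979.5 and 2826 at 500 nM. All libraries of 0.5 and 5 nM lay above DMSO and all those of 500 nM below it. The comparisons with DMSO did not pass: 0.15 at 0.5 nM (SE 0.0403, adjusted p = 0.0839), 0.10 at 5 nM (adjusted p = 0.271) and -0.11 at 500 nM (adjusted p = 0.0747). At 0.5 nM the call was made by DESeq2 on recovered reads (adjusted p = 0.0171), and at 500 nM it was made in 3 of 26 alternatives. The mean of 50 and 500 nM was below that of 0.5 and 5 nM, with a log2 difference of -0.18 (SE 0.0285, adjusted p = 0.000166). This difference of means uses no DMSO library, but its SE takes the spread from all 15 libraries. The call held in 25 of 25 alternatives.

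KLF5, which drives growth of epithelial cells, and KLF7, known from axon growth, passed no comparison with DMSO. KLF5 was at 707, 710.2 and 821 in DMSO and between 616 and 765 in the treated libraries, with all 3 libraries of 5 nM below DMSO (-0.18, SE 0.0664, adjusted p = 0.201). KLF7 was at 102, 88.0 and 107 in DMSO, 111, 123 and 128 at 5 nM, and 67.7, 109 and 101 at 50 nM. The 5 nM libraries of KLF7 all lay above DMSO, yet the difference did not pass (0.29, SE 0.151, adjusted p = 0.45). For KLF5 the 2 higher doses lay above the 2 lower ones by 0.13 (adjusted p = 0.0522), which passed in 6 of 25 alternatives. For KLF7 the 2 higher doses lay below the 2 lower ones, with a log2 difference of -0.32 (adjusted p = 0.0453), a call made in 11 of 25 alternatives and lost, for one, without 50 nM replicate 1, its lowest library (-0.21, adjusted p = 0.113).

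**Figure D1:**
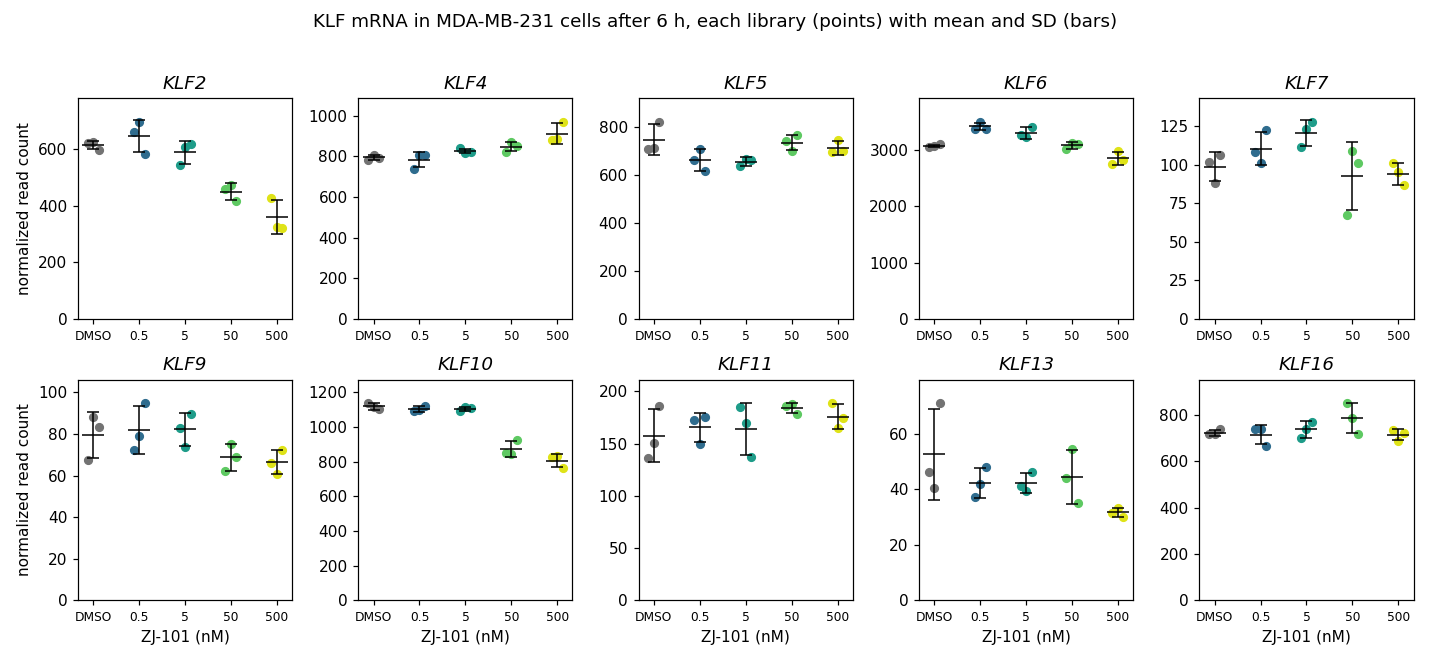
Normalized read count (vertical axis, from 0) of each of the 10 KLF genes in every library (points) of DMSO and 0.5, 5, 50 and 500 nM ZJ-101 (horizontal axis), with the mean and SD of the 3 libraries as bars. KLF2 goes from 616 in DMSO to 359 at 500 nM and KLF10 from 1119 to 807, whereas KLF4 goes from 795 to 912.

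Among the members that bind SIN3A, KLF10 changed with the smallest spread. It is a TGF-beta-inducible early gene. Its counts were 1138, 1116 and 1103 in DMSO, 1094, 1097 and 1123 at 0.5 nM, 1091, 1113 and 1110.5 at 5 nM, 849, 845 and 926 at 50 nM, and 826, 833 and 762 at 500 nM. The libraries of 0.5 and 5 nM overlapped DMSO, and those of 50 and 500 nM lay below every other library. The log2 fold change was -0.02 at 5 nM (adjusted p = 0.93), -0.36 at 50 nM (SE 0.0492, adjusted p = 7.91e-05) and -0.47 at 500 nM (adjusted p = 1.22e-06). The step from 5 to 50 nM was -0.34 (adjusted p = 0.000266), and that from 50 to 500 nM was -0.11 (adjusted p = 0.328). Both calls against DMSO held in 26 of 26 alternatives.

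KLF11, the other TGF-beta-inducible member, passed no test. It was at 137, 151 and 186 in DMSO and at 189, 165 and 174 at 500 nM, and these ranges overlapped (0.17, SE 0.122, adjusted p = 0.404). Of its exon bases 9.06% lie in a gene on the other strand.

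KLF13, known as an activator of CCL5 in T lymphocytes, was the member with the lowest level. It was at 46.1, 40.5 and 71.0 in DMSO and at 31.6, 33.4 and 30.03 at 500 nM, so that all libraries of 500 nM lay below DMSO. The fall was -0.67 (SE 0.204, adjusted p = 0.0276), but it rests on DMSO replicate 3, and without that library it was -0.44 (adjusted p = 0.172). Leaving out any 1 library of 500 nM also ended the call (adjusted p from 0.053 to 0.0837), as did testing genes with no filter on low values (adjusted p = 0.0657).

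KLF9, a glucocorticoid-induced gene, and KLF16, a GC-box binding repressor, passed no test. KLF9 was at 67.3, 88.0 and 83.2 in DMSO and at 66.3, 60.7 and 72.4 at 500 nM (-0.25, SE 0.143, adjusted p = 0.268). KLF16 was at 716, 717 and 739 in DMSO and at 734, 688 and 722 at 500 nM (-0.02, SE 0.0633, adjusted p = 0.886), and its direction turned with the setting, from -0.04 to 0.13. The exons of KLF16 have a GC content of 67.8%, and 16.3% of their bases lie in a gene on the opposite strand.

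**Figure D2:**
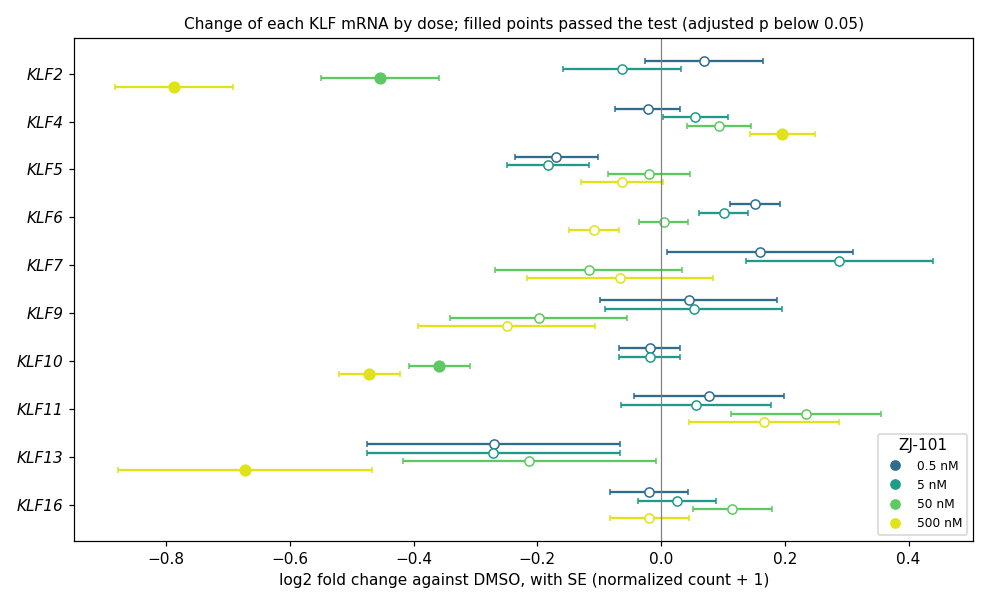
Log2 fold change against DMSO (horizontal axis, normalized count + 1) of each KLF gene (vertical axis) at 4 doses of ZJ-101, with the SE as bars and filled points where the adjusted p is below 0.05. Filled points occur at 50 nM for KLF2 and KLF10, and at 500 nM for KLF2, KLF4, KLF10 and KLF13.

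Counted over the 10 members, limma called 0 at 0.5 nM, where 1.17% of all tested genes were called, and 0 at 5 nM (2.18% of all). At each of these doses 2 members, KLF5 and KLF6, had an unadjusted p under 0.05, edgeR called 0, and DESeq2 called 1 at 0.5 nM and 0 at 5 nM. By unadjusted p the weaker of the 2 ranked 1151 of 13561 tested genes at 0.5 nM (KLF5) and 1114 at 5 nM (KLF6). At least that many genes therefore passed this unadjusted cut. At 50 nM 2 members were called, both lower (6.0% of all). At 500 nM 4 were called (17.8% of all), 3 lower (10.1% of all) and 1 higher (7.69% of all). Without 500 nM replicate 3 the count at 500 nM was 2. Over all tested genes 828 were then called higher and 1106 lower, against 1043 and 1366 with all libraries. The median log2 fold change at 500 nM was -0.09 over the members and 0.00266 over all tested genes.

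The slope on dose called 3 members, KLF2, KLF4 and KLF10 (17.6% of all), and 5 without DMSO replicate 1. The comparisons with DMSO share the same 3 control libraries. Differences between doses do not use the DMSO means, but their SE rests on the spread of all 15 libraries, DMSO included. The step from 0.5 to 5 nM called 0 members (0.118% of all), with 0 at an unadjusted p under 0.05 and 0 by edgeR and by DESeq2. From 5 to 50 nM 2 were called (5.01% of all). From 50 to 500 nM limma called 0 (2.28% of all), with 5 at an unadjusted p under 0.05 and 0 by edgeR and by DESeq2. KLF16, the weakest of these 5, ranked 1734 of 13561 tested genes by unadjusted p. At least that many genes therefore passed the unadjusted cut at this step. The 2 higher against the 2 lower doses called 5 members, KLF4 higher and KLF2, KLF6, KLF7 and KLF10 lower (19.3% of all), and 3 without 500 nM replicate 3. In that comparison KLF4 was higher by 0.13 (adjusted p = 0.02), which was lost without 0.5 nM replicate 1 (adjusted p = 0.0533) or 500 nM replicate 3 (adjusted p = 0.0635).

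Groups that did not overlap were counted too. At 0.5 nM 1 member, KLF6, lay apart from DMSO (18.1% of all tested genes). At 5 nM KLF4, KLF6 and KLF7 lay above and KLF5 below it (23.2% of all), and at 50 nM KLF4 lay above and KLF2 and KLF10 below it (24.8%). At 500 nM KLF4 lay above and KLF2, KLF6, KLF10 and KLF13 below it (38.5%).

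Levels of different genes were compared per kilobase of exon, where the length joins all annotated exons of a gene. In DMSO the order was KLF6 at 501 normalized counts per kb, KLF10 at 293, KLF16 at 244, KLF2 at 218, KLF4 at 217, KLF5 at 203, KLF11 at 34.3, KLF9 at 15.3, KLF7 at 10.3 and KLF13 at 5.57. The libraries of KLF2, KLF4 and KLF5 overlapped on this scale, and the other neighbours did not. Order and overlaps depend on the length used. The joined exons of KLF4 have 3662 bases and its main annotated transcript 2936. For KLF16 these lengths were 2966 and 2901, and for KLF2 both were 2820. By transcript length KLF4 would stand above KLF16 and KLF2 in DMSO. At 500 nM KLF4 stood second at 249 per kb and KLF2 sixth at 127, below KLF5 at 194. There KLF4 overlapped KLF16 at 241, and KLF10 at 211 overlapped KLF5.

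**Figure D3:**
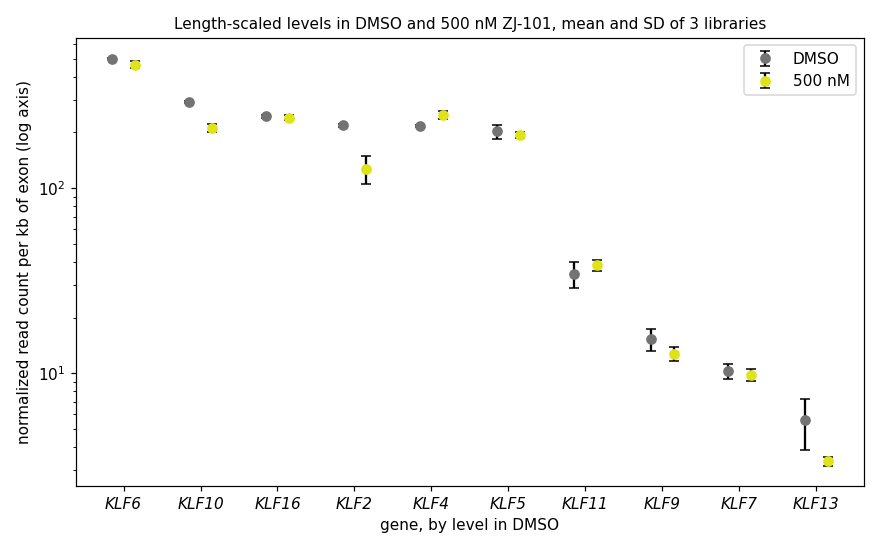
Normalized read count per kb of exon (vertical log axis) of the 10 KLF genes in DMSO (grey) and 500 nM ZJ-101 (yellow), as mean and SD of 3 libraries, ordered by the level in DMSO. KLF2 drops from 218 to 127 and KLF10 from 293 to 211, so that KLF4, at 249, lies above both at 500 nM.

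The summed normalized counts of all 10 members were 7462 ± 119.7 in DMSO, 7730.1 ± 163 at 0.5 nM, 7621 ± 162 at 5 nM, 7165 ± 68.8 at 50 nM and 6727 ± 76.7 at 500 nM. The 5 SIN3A-binding members went from 2132 ± 42.6 to 1796 ± 44.4 between DMSO and 500 nM, and the 5 activators from 5329 ± 77.3 to 4931.5 ± 90.4. These sums are not scaled by exon length, and KLF6 is the largest term of the activator sum and KLF10 of the SIN3A-binding sum. Among the activators at 500 nM KLF2 was called lower and KLF4 higher, and KLF6 was not called. Among the SIN3A-binding members KLF10 and KLF13 were called lower.

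Patterns over the 15 libraries were described by Pearson's r of log2 values, where the points share the dose groups. KLF2 and KLF10 ran together (r = 0.91), and KLF4 ran opposite to KLF2 (r = -0.865) and KLF10 (r = -0.817). Of all tested genes, B3GNT7 (r = 0.97) and CKAP4 (r = 0.96) were most like KLF2, HS2ST1 and SEMA3A (r = 0.98 each) most like KLF10, DOLK (r = 0.91) and MCOLN1 (r = 0.90) most like KLF4, and MKRN1 (r = 0.86) and CORO2A (r = 0.84) most like KLF13. The size of the change differed among them: CKAP4, a membrane protein of the endoplasmic reticulum, fell from 9223 ± 228 to 2876 ± 147 at 500 nM, far more than KLF2.

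The rest of the KLF and SP family held 17 genes, of which 9 were tested. At 500 nM 1 rose and 1 fell, which is near the 7.69% and 10.1% of all tested genes. SP6 rose from 44.3 ± 6.89 to 70.6 ± 0.797 (0.67, adjusted p = 0.0115) and SP5 fell from 238 ± 5.82 to 183 ± 28.4 (-0.38, adjusted p = 0.0243). Each of these calls was lost without 1 or more single libraries, DMSO replicate 1 among them. KLF3 (-0.13), KLF12 (-0.21), KLF15 (-0.16), SP1 (0.04), SP2, SP3 and SP4 passed no test at 500 nM. KLF1, KLF8, KLF14, KLF17, KLF18, SP7, SP8 and SP9 were below the filter. The processed pseudogenes of KLF2, KLF4 and KLF7 were at 0 to 1.03 normalized counts.

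Genes upstream of the members were read from lists, at 500 nM against DMSO, where 10.1% of all tested genes fell and 7.69% rose. Of 15 TGF-beta and SMAD genes 10 fell. SMAD7, the feedback inhibitor of the pathway, fell from 305 ± 8.61 to 122 ± 9.29 (-1.32, adjusted p = 3.21e-09), and SKIL, a SMAD co-repressor, fell by 0.71 on the log2 scale. The median of the list was -0.21, and the number that fell was 5 without DMSO replicate 3 and 6 without 500 nM replicate 2.

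In the MEK5-ERK5-MEF2 route, which induces KLF2 and KLF4 in endothelium, 2 of 7 tested genes fell and 0 rose (median -0.14), beside 10.1% and 7.69% of all tested genes. MEF2C, 1 of the MEF2 transcription factors at its end, fell from 85.3 ± 4.22 to 55.1 ± 4.37 (-0.62, adjusted p = 0.0182) and the kinase MAP3K3 fell by 0.24. MEF2A (661 in DMSO, -0.26, adjusted p = 0.0576) and MEF2D (1000 in DMSO, -0.14, adjusted p = 0.176) had higher counts and did not pass. The number of the list that fell was 0 when DMSO replicate 2, DMSO replicate 3, 500 nM replicate 1 or 500 nM replicate 3 was left out. Of 7 tested glucocorticoid receptor genes and targets 4 fell and 2 rose. TSC22D3 fell by 0.59 (adjusted p = 0.00779) and ERRFI1 fell by 0.55 on the log2 scale, whereas FKBP5 and DUSP1 rose by 0.30 each, so that the targets did not move one way. Without DMSO replicate 3 or 500 nM replicate 2, 2 of them fell, and 1 rose without DMSO replicate 2, DMSO replicate 3 or 500 nM replicate 1.

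Of 6 tested textbook targets of KLF proteins 3 fell and 0 rose, beside 10.1% and 7.69% of all tested genes. CDKN1A, the cell cycle inhibitor that KLF4 and KLF6 are known to induce, fell from 1627 ± 44.1 to 1065 ± 14.6 (-0.61, adjusted p = 5.77e-08), and THBD, the thrombomodulin gene induced by KLF2 in endothelium, fell by 0.44 (adjusted p = 5.41e-05). Of 12 co-regulators 2 fell, the acetyltransferase KAT2B (-0.27) and the co-repressor CTBP2 (-0.15), and 0 rose, a share near the 17.8% called among all tested genes; 1 fell when DMSO replicate 1 or 2, or 500 nM replicate 1 or 2, was left out. Of 7 ubiquitin enzymes WWP1, a ligase for KLF2 and KLF5, fell by 0.19 (adjusted p = 0.0234), a call that ended when DMSO replicate 1, DMSO replicate 3, 500 nM replicate 1 or 500 nM replicate 3 was left out.

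Of 20 genes for AU-rich element binding and deadenylation 3 passed the test, a share near the 17.8% of all tested genes. In this list CNOT8 (-0.26) and PAN3 (-0.24) fell and TIAL1 rose by 0.13, with a list median of 0.02. The TIAL1 call was lost without any 1 library of DMSO or of 500 nM, and 1 gene fell without DMSO replicate 3. Of 24 tested transcription factor and feedback genes with short-lived mRNA outside the KLF family, 9 fell and 3 rose (median -0.23), beside 10.1% and 7.69% of all tested genes. ID3, an inhibitor of basic helix-loop-helix factors, fell from 1302 ± 83.1 to 378 ± 12.3 (-1.78, adjusted p = 1.68e-11), and HES1, a Notch target, fell by 1.60. FOSL1 and JUN, subunits of AP-1, rose by 0.42 and 0.33. The changes of the KLF genes, from -0.79 to 0.20, lay inside the range of this list, from -1.78 to 0.42. Over all tested genes the range was -2.58 to 2.83. Whether the KLF genes change like the genes of this list was not tested.

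**Figure D4:**
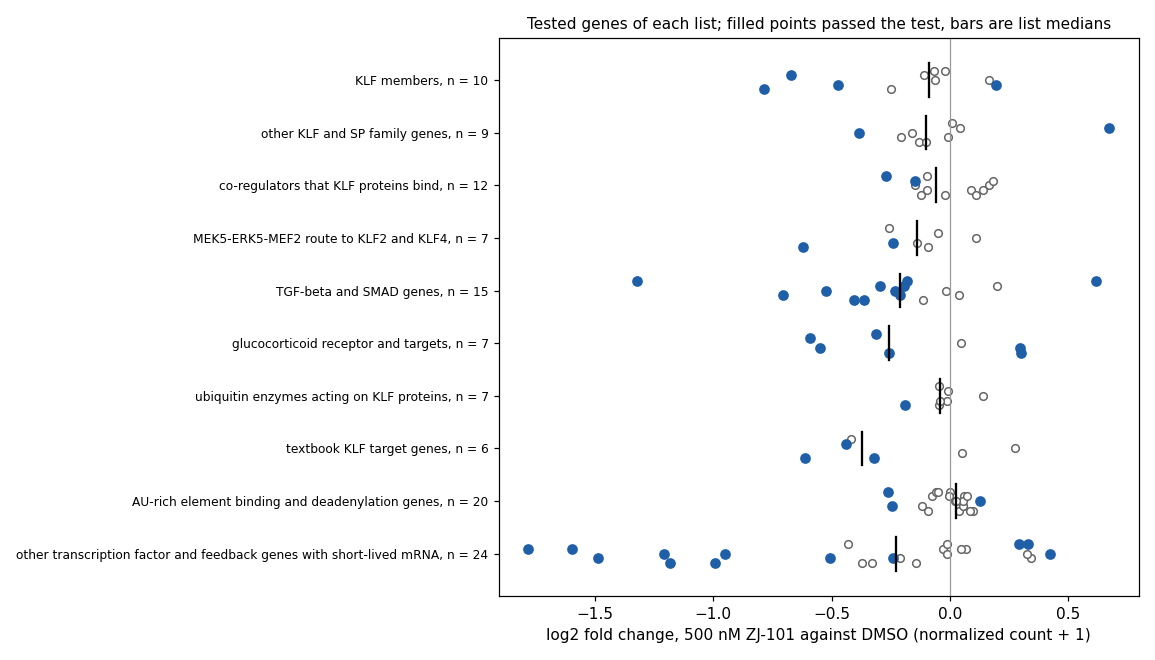
Log2 fold change at 500 nM ZJ-101 against DMSO (horizontal axis, normalized count + 1) of each tested gene (points) of the KLF members and 9 lists (vertical axis), filled where the adjusted p is below 0.05, with list medians as bars. The TGF-beta list has 10 of 15 points filled below 0 and the list of other short-lived mRNAs has 9 of 24. The KLF members have 3 of 10, beside 10.1% of all tested genes.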

How the data were processed

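RNA of MDA-MB-231 cells was compared between DMSO and 4 doses of ZJ-101. The signal values are normalized counts deposited by the authors, who used HISAT2 to align poly-A reads (hg38) and HTSeq for gene counts, and divided these by DESeq2 size factors. A GENCODE annotation was used. Its release number, the strandedness and the tool versions were not given in the sources used here. From each library's smallest step, 100% of values were whole reads within 0.001. The main test was limma 3.58.1 (R 4.3.3) with a variance trend on log2(normalized count + 1), for 13561 genes with a mean of at least 10, with 5 groups in 1 fit (10 residual degrees of freedom), Benjamini-Hochberg adjustment over all of them and a threshold of 0.05. A second fit used the rank of the dose. edgeR 4.0.16 and DESeq2 1.42.0 on the recovered reads were alternatives. The test was checked on simulated data. Exon lengths and UTRs came from GENCODE release 44, matched by symbol for 93.8% of tested genes.

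The members, lists and alternatives were chosen with earlier results of these data known. Named were all members, tested relatives, up to 2 rises and 2 falls per list, and the 2 genes most like each member called at 500 nM. MEF2A and MEF2D were named in addition, beside MEF2C. The labels call the treated replicates biological. Libraries of a group differed beyond sampling noise (chi-square over its degrees of freedom from 2.04 to 16.5), so none held the same reads as another of its group. Libraries of different groups were not compared in this way. Whether any came from a shared culture, or from 1 library sequenced again, is not known from this. All come from 1 line, and p-values measure only the spread between these libraries, which may be technical. The result for 1 gene of the TGF-beta list is not reported here.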

Additional observations from a re-analysis of the deposited data

How the results depend on the processing

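The 9 counts of called KLF members were recomputed under other pseudocounts (0.5 and 5), filters (none, and a mean of at least 50), TMM and equal-total scaling, edgeR, DESeq2, 6 libraries alone, a replicate block and each library left out, and after removal of trends with GC content and length, which was chosen after seeing the data. Of 230 such values 219 lay within 1.5 times the value reported. At 0.5 nM the count was 1 (KLF6) by DESeq2 and also 1 with GC and length removed, against 0. With 1 library left out, the count ranged from 2 to 5 at 500 nM, from 3 to 5 for the slope, from 1 to 2 for 50 against 5 nM, from 0 to 1 for 500 against 50 nM and from 3 to 6 for 50 and 500 against 0.5 and 5 nM. For single members, 0 of 2287 values reversed a called direction, 27 lost a call and 21 gained one. KLF2 and KLF10 were called at 500 nM in all 26 alternatives. The shares over all tested genes are those of all 15 libraries, and they moved too. At 0.5 nM 7 genes were called higher and 12 lower without DMSO replicate 1, and 113 and 278 without 0.5 nM replicate 3. Without 0.5 nM replicate 2 more genes were called at 500 nM, 1443 higher and 1654 lower, against 1043 and 1366.

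The replicate block changed no count (4 at 500 nM, 2 at 50 nM). Same-numbered libraries did not deviate together (r from -0.0855 to 0.0961, 0 of 30 pairs over 0.1), and 7 of 15 libraries correlated best with their own number. No pairing by number was seen, but these values cannot exclude one. KLF13, with 31 to 70 reads per library, is where depth limits most.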
